A study of Mus musculus with 6 samples.

Results

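The complement system was described here through 35 mouse genes of its components, receptors and regulators, in visceral fat of mice with an additional paternal copy of a chromosome 7 stretch. The members were taken by gene name from the array's probe annotation and sorted by role into the classical, alternative, lectin and terminal routes, the receptors and the regulators. Of the 35 members, 28 were measured, against 19194 genes or unnamed features measured on the arrays in all. To count as measured, a member needed a probe that the scanner software marked as well above background on 3 or more of the 6 arrays, and the brightest such probe was used. The tissue was epididymal white adipose tissue, the fat depot beside the testis, of male C57BL/6 mice aged 9 to 10 weeks. The patDp/+ group held 3 mice that carried, on the paternally inherited chromosome, a duplication of the stretch matching human 15q11-13, and the wild type group held 3 mice without it. Each mouse had 1 one-colour array made from 200 ng of total RNA. The labels give no other allele, diet or treatment in either group, and the duplication is inherited and thus not limited to fat.

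Complement is a set of plasma and membrane proteins that marks microbes, dying cells and immune complexes for removal. The classical route starts when C1q binds a target and activates the proteases C1r and C1s, and the lectin route starts from sugar-binding collectins and ficolins with the MASP proteases. Both cut C4 and C2, whereas the alternative route amplifies C3 cleavage through factor B, factor D and properdin. All routes meet at C3, whose fragments coat targets and recruit leukocytes through receptors, and the terminal components assemble a pore in membranes. Host cells are protected by membrane and soluble regulators. The liver makes most plasma complement, but fat is a known local source: factor D is the adipocyte product adipsin, and C1q is made mainly by macrophages.

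The labels were first checked on genes of the duplicated stretch. Snrpn, Ndn, Mkrn3, Atp10a, Herc2 and Ube3a had log2 differences (patDp/+ minus wild type) of 0.50 to 1.19, and the groups did not overlap for any of them. Adipocyte markers were all measured (9 of 9), and 5 of 6 markers of epididymis and testis, Crisp1, Lcn5, Lcn8, Rnase9 and Adam7, were too dim to be measured, as were the liver genes Apoa1, Ttr and Fgb. The number of probes well above background ran from 26086 on the array of patDp/+ replicate 3 to 29509 on that of patDp/+ replicate 1. The negative controls averaged 36.7 intensity units on patDp/+ replicate 1 and 29.0 to 31.6 on the others. Each slide that was used carried 1 wild type and 1 patDp/+ array with the same replicate number, so every difference could also be read within slides 1, 2 and 3.

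The differences of the measured complement genes, patDp/+ minus wild type, ran from -0.70 to 1.38 on the log2 scale. For 12 of the 28 measured members (42.9%), patDp/+ replicates 1 and 2 both stood above all wild type arrays, beside 13.8% of all genes. On patDp/+ replicate 3, the C1q chains, C1s, C4b, Cfb, Cfp, Itgb2, Cfi and Serping1 among them did not, whereas Masp2 and Cd59a did. This arrangement was noticed in the data and not tested. Of the 28 measured members, 18 had a positive and 10 a negative difference. The share of positive members was 64.3%, against 47.3% of all genes. Their median difference was 0.15 on the log2 scale, beside -0.01 for all genes. None of the members passed the adjusted threshold in limma (adjusted p = 0.875 to 0.997 over all genes), and 0% of all genes did. The genes of the duplicated stretch did not pass either, so not passing does not show that a gene is unchanged. At an unadjusted p under 0.05, 1 member was higher, where 2.68% of all genes were higher, and 0 members were lower, where 2.92% of all genes were. The 1 member was the regulator Cfi, which was well above background on 3 patDp/+ arrays but on only 1 wild type array, and so passed the filter on dim probes through the group in which it was higher. For 2 members, Masp2 and Cd59a, all patDp/+ arrays stood higher than all wild type arrays, as for 5.26% of all genes, and for 0 members they all stood lower, as for 5.89%. These shares are near those of all genes.

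**Figure D1:**
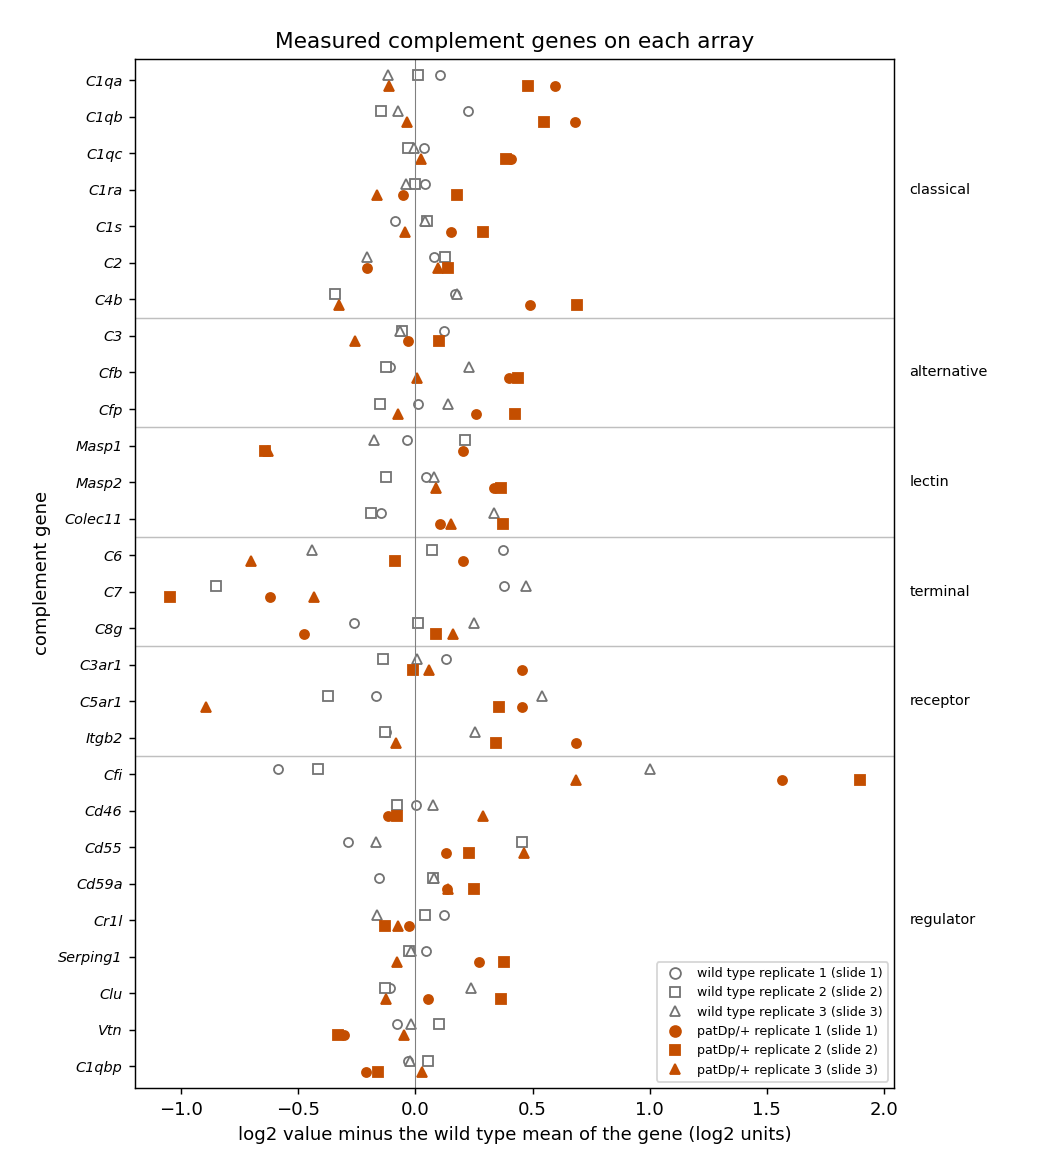
Level of each measured complement gene on each of the 6 arrays, as the log2 value minus the wild type mean of that gene (x axis, log2 units), sorted by role. Open grey symbols are wild type mice, filled orange symbols patDp/+ mice, and the symbol shape gives the replicate number and slide. For C1qa, C1qb and C1qc the circle and square of patDp/+ replicates 1 and 2 stand to the right of all wild type symbols, whereas the triangle of patDp/+ replicate 3 stands among them or beside them.

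Among the classical genes, the 3 chains of C1q, the recognition protein that is assembled from the products of C1qa, C1qb and C1qc, had the same pattern. Levels below are log2 values relative to the 75th percentile of the array, so that 0 is the level of the 75th percentile probe, and levels of different probes are not compared. C1qa was at 3.78, 3.68 and 3.55 in wild type replicates 1, 2 and 3 and at 4.27, 4.15 and 3.56 in patDp/+ replicates 1, 2 and 3. C1qb was at 3.53, 3.16 and 3.23 in wild type and at 3.99, 3.86 and 3.27 in patDp/+ fat. C1qc was at 4.48, 4.42 and 4.44 in wild type and at 4.86, 4.84 and 4.47 in patDp/+ fat. For all 3 chains, patDp/+ replicates 1 and 2 lay above every wild type array. patDp/+ replicate 3 lay inside the wild type range for each chain, so the groups overlapped.

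C1qa averaged 3.67 ± 0.11 (SD, n = 3) over the wild type arrays against 3.99 ± 0.38 (SD, n = 3) over the patDp/+ arrays, a log2 difference of 0.32 ± 0.20 (SE) that did not pass in limma (unadjusted p = 0.150, adjusted p = 0.905). C1qb differed by 0.40 ± 0.21 (limma, unadjusted p = 0.106, adjusted p = 0.888), and C1qc by 0.27 ± 0.12 (limma, unadjusted p = 0.0632, adjusted p = 0.877). In each chain the SD of the patDp/+ group was larger than that of the wild type group (0.38 against 0.11, 0.38 against 0.20 and 0.22 against 0.03). Within slides 1, 2 and 3 the differences were 0.49, 0.47 and 0.00 for C1qa, 0.46, 0.70 and 0.04 for C1qb, and 0.37, 0.42 and 0.03 for C1qc. Without patDp/+ replicate 3 they were 0.54 ± 0.10, 0.61 ± 0.14 and 0.40 ± 0.08 (limma, unadjusted p = 0.00316, 0.00651 and 0.00343), and the adjusted p stayed at 0.363 to 0.396. Leaving out patDp/+ replicate 1 instead gave 0.18, 0.26 and 0.21.

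The 3 chains lie side by side on chromosome 4, so their shared pattern is shown here with the probes that read it and the sequence upstream. On mm9, the build of the array annotation, the C1qa probe lies at chr4:136452409-136452468, the C1qc probe at chr4:136445766-136445825 and the C1qb probe at chr4:136436578-136436637, all on the minus strand. The probes of C1qa and C1qc are 6.58 kb apart and those of C1qc and C1qb 9.13 kb. The 60-base probes of C1qa and C1qb, each with a reading frame free of stop codons, read 5′ to 3′ as follows.
C1qa: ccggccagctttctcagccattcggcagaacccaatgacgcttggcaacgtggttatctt
C1qb: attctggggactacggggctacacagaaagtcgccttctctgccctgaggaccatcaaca

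Promoters of C1qb and C1qc were read from RefSeq on GRCm38.p6, from 250 bases before to 50 after the gene start, because both genes had the same order of arrays. The motif searched was GAGGAA on both strands, the core bound by PU.1, a transcription factor of macrophages. It was found at 1 place in each, with its first base 30 bases before the start of C1qb and 193 bases before the start of C1qc, where it reads as its reverse complement. Capitals mark the motif in the C1qb promoter, chr4:136886151-136886450 on the minus strand, and in the C1qc promoter, chr4:136892865-136893164 on the minus strand.
C1qb: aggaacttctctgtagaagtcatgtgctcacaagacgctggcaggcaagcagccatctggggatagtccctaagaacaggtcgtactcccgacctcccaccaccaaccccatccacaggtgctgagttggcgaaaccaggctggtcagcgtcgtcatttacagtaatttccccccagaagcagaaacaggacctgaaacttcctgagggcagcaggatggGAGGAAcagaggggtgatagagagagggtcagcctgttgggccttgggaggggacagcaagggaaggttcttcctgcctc
C1qc: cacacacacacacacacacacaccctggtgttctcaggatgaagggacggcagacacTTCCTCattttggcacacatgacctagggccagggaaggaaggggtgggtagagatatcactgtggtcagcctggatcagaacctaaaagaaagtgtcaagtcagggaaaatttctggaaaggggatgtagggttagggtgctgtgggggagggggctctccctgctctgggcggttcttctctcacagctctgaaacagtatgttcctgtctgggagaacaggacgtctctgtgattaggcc

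The same letters occur in 28.3% of the 32851 mouse promoter windows of that length, and in those of 5 of the 19 measured members that had a window, C1qb, C1qc, C1ra, Cd59a and Cfp. The longer form GAGGAAGT, which contains the core and occurs in 3.2% of all windows, was found in C1qc alone among these members. Also on both strands, an NF-kB motif with its middle bases left free was found for 6 of the 19 members (20.7% of all windows) and the C/EBP form TTGCNNAA for 3 (10.8% of all windows). A match describes letters only. A member was counted if any of its windows held the motif, whereas the shares are over single windows. Counts and shares are thus not strictly comparable.

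Of the proteases that C1q activates, C1s had patDp/+ replicates 1 and 2 above all wild type arrays, as the C1q chains did. C1ra did not. C1ra, the gene of C1r, differed by -0.01 ± 0.11 (SE), and C1s, whose probe lies 7.72 kb from that of C1ra on chromosome 6, by 0.13 ± 0.11. C1s was at 4.31, 4.44 and 4.44 in wild type and at 4.55, 4.68 and 4.35 in patDp/+ fat, with 0.24, 0.24 and -0.09 within slides. C2, the protease part of the C3 convertase, was at 0.01 ± 0.14, with within-slide differences of -0.29, 0.01 and 0.30, an order of slides unlike that of C1q. Over the 7 classical members, 6 had a positive difference, the median was 0.27, and the within-slide medians were 0.32, 0.42 and 0.00.

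C4b, the gene of C4, whose cleavage product binds covalently to targets, was the most variable classical member. It was at 4.95, 4.44 and 4.96 in wild type replicates 1, 2 and 3, and at 5.27, 5.48 and 4.46 in patDp/+ replicates 1, 2 and 3. The highest and the second highest level were those of patDp/+ replicates 2 and 1, but patDp/+ replicate 3 lay next to the lowest wild type array. The difference was 0.28 ± 0.29 (SE; limma, unadjusted p = 0.371, adjusted p = 0.943), with 0.32, 1.04 and -0.50 within slides 1, 2 and 3. Without patDp/+ replicate 3 it was 0.59 ± 0.19 (limma, unadjusted p = 0.0274, adjusted p = 0.486). The C4b probe lies on mm9 at chr17:34866361-34866420, minus strand, 127 kb from that of Cfb, and is shown because the near-identical gene C4a could share its signal.
C4b: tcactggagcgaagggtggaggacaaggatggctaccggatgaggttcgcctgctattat

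C4a has its own probe, which was at -2.80, -3.61 and -2.80 in wild type and at -2.63, -2.30 and -3.36 in patDp/+ fat (0.31 ± 0.34, SE). It ranked the 6 arrays much as C4b did, with patDp/+ replicate 2 highest and wild type replicate 2 lowest. Cross-binding between C4a and C4b was not tested, nor was that of the pairs C1ra and C1rb, C1s and C1s2, Cd59a and Cd59b, or Cd55 and Cd55b.

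In the alternative route, C3 itself, the protein on which all routes converge, hardly differed. It was at 7.97, 7.79 and 7.78 in wild type and at 7.81, 7.95 and 7.59 in patDp/+ fat, so that the groups overlapped, with patDp/+ replicate 3 as the lowest array. The difference was -0.06 ± 0.12 (SE; limma, unadjusted p = 0.606, adjusted p = 0.975). A second C3 probe gave -0.06 as well. With array weights the difference of C3 was 0.02, and without patDp/+ replicate 3 it was 0.03.

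Cfb, the gene of factor B, which supplies the protease of the alternative C3 convertase, was at 4.90, 4.88 and 5.23 in wild type and at 5.40, 5.44 and 5.01 in patDp/+ fat. Again patDp/+ replicates 1 and 2 lay above all wild type arrays, and patDp/+ replicate 3 lay inside the wild type range. Its difference was 0.28 ± 0.16 (SE; limma, unadjusted p = 0.125, adjusted p = 0.897), with 0.51, 0.56 and -0.22 within slides. Without patDp/+ replicate 3 it was 0.42 ± 0.14 (limma, unadjusted p = 0.0264, adjusted p = 0.483). The Cfb probe lies 5.72 kb from that of C2 on mm9, at chr17:34993502-34993858 on the minus strand. Its 60 bases span 357 bases of the genome. It is printed because Cfb and its neighbour C2 ordered the arrays differently.
Cfb: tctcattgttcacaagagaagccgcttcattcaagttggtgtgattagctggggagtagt

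Cfp encodes properdin, the stabiliser of that convertase, which is made by leukocytes. It was at 4.27, 4.11 and 4.40 in wild type and at 4.52, 4.68 and 4.18 in patDp/+ fat. The 2 highest levels were patDp/+ replicates 2 and 1, as for C4b. The difference was 0.20 ± 0.15 (SE; limma, unadjusted p = 0.224, adjusted p = 0.929), with 0.25, 0.58 and -0.21 within slides, and 0.34 without patDp/+ replicate 3 (limma, unadjusted p = 0.0355, adjusted p = 0.512). C3, Cfb and Cfp shared one feature, since patDp/+ replicate 3 was the lowest patDp/+ array for 3 of 3.

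**Figure D2:**
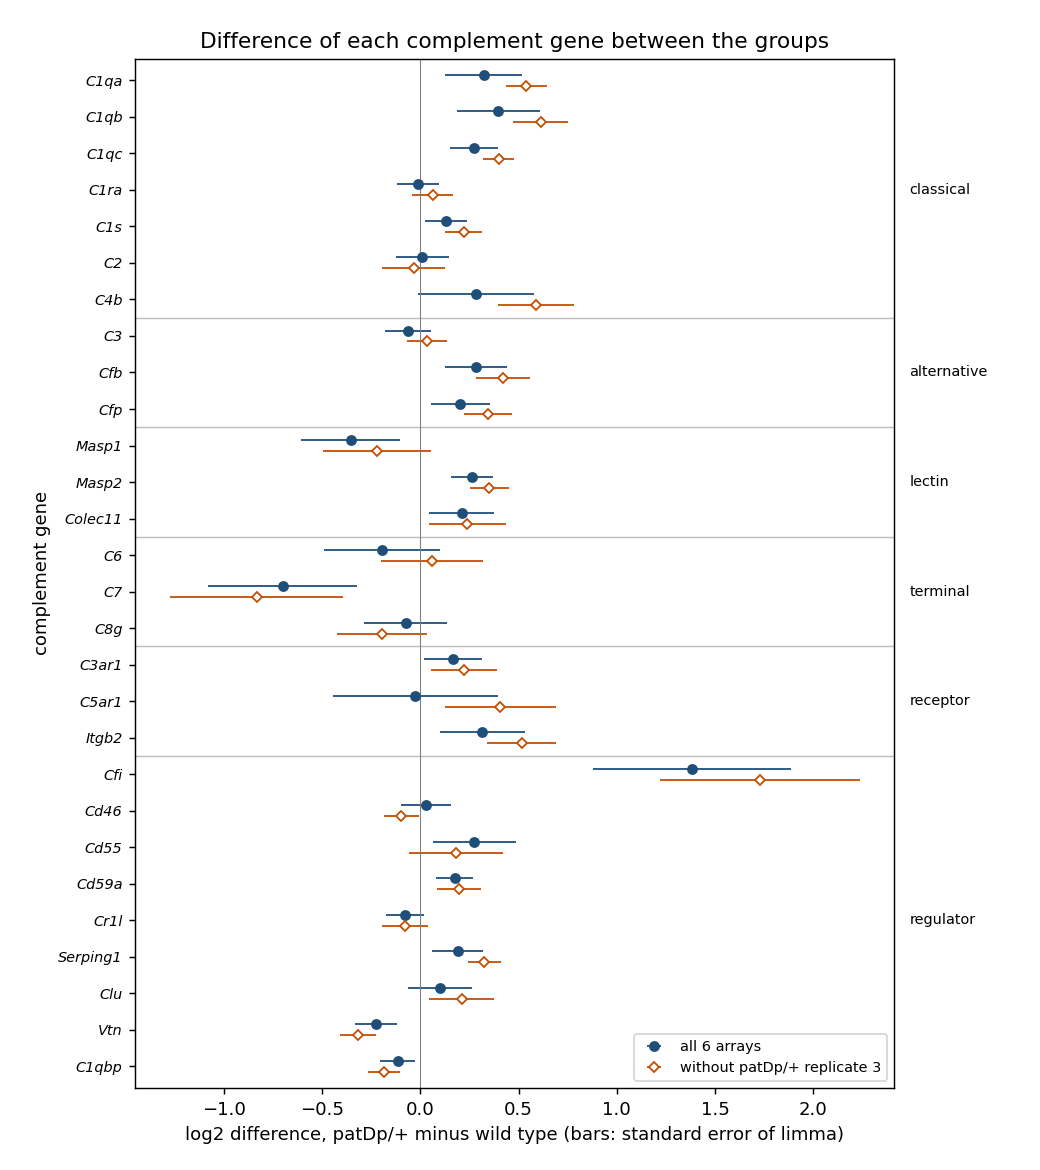
Log2 difference of each measured complement gene, patDp/+ minus wild type, with limma's standard error as bars, from all 6 arrays (filled circles) and without patDp/+ replicate 3 (open diamonds). The C1q chains move from 0.27 to 0.40 with all arrays to 0.40 to 0.61 without that array, and Cfi, not well above background on 2 wild type arrays, is at 1.38.

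Of the 5 lectin members, 3 were measured. Masp2 encodes the protease that cuts C4 and C2 in this route. Its brightest probe, on mm9 at chr4:147978429-147978488, was at -1.43, -1.60 and -1.39 in wild type and at -1.14, -1.11 and -1.39 in patDp/+ fat. The groups did not overlap, but patDp/+ replicate 3 and wild type replicate 3, at -1.388 and -1.394, were nearly level. The difference of 0.26 ± 0.11 (SE) did not pass in limma (unadjusted p = 0.0514, adjusted p = 0.877, and adjusted p = 0.449 to 1.00 over the alternatives). The other kept Masp2 probe gave -0.07, and the mean over both probes 0.10. The 2 probes thus do not give 1 answer for the gene.

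Masp1, whose protease activates MASP-2 and is also linked to clotting, was at 0.77, 1.01 and 0.62 in wild type and at 1.00, 0.16 and 0.17 in patDp/+ fat. The array of patDp/+ replicate 1 lay near the highest wild type array, and the other patDp/+ arrays lay below all wild type arrays. The difference was -0.36 ± 0.25 (SE; limma, unadjusted p = 0.207, adjusted p = 0.920), and -0.64 without patDp/+ replicate 1 (limma, unadjusted p = 0.00512, adjusted p = 0.9997). The probe used was annotated to a cDNA without a RefSeq match. A dimmer kept probe gave -0.46. The probe annotated to the RefSeq transcript of Masp1 was well above background on 0 wild type and 0 patDp/+ arrays. Whether these values hold for that transcript was not tested. Colec11, a collectin that recognises sugars, differed by 0.21 ± 0.16. Mbl1 and Mbl2, the mannose-binding lectins, which are liver products, were too dim to be measured.

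Of the 6 roles, the terminal pathway was the one in which all measured members had a negative difference, and none of them passed. Of 7 members, 3 were measured. C7, which anchors the growing pore in the membrane, was at -0.37, -1.60 and -0.27 in wild type replicates 1, 2 and 3 and at -1.37, -1.79 and -1.18 in patDp/+ replicates 1, 2 and 3. Wild type replicate 2 lay among the patDp/+ arrays, and the other wild type arrays lay above all of them. The difference was -0.70 ± 0.38 (SE; limma, unadjusted p = 0.113, adjusted p = 0.894). C7 was lower within each slide, by -1.00, -0.20 and -0.91, and with the slide as a block, which here equals the replicate block, the unadjusted p was 0.0204 and the adjusted p = 0.921 in limma. Without wild type replicate 2 the difference was -1.13 (limma, unadjusted p = 0.00208, adjusted p = 0.677).

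C6, which joins C5b before C7 and whose probe lies 249 kb from that of C7 on chromosome 15, differed by -0.20 ± 0.30 (SE), with -0.17, -0.16 and -0.26 within slides. Its sign turned with array weights (0.09) and without patDp/+ replicate 3 (0.06). C8g, a C8 chain, differed by -0.08 ± 0.21, and its sign turned with another background correction (0.07) and without wild type replicate 3 (0.05) or patDp/+ replicate 1 (0.12). Hc, the mouse gene of C5, was well above background on 2 patDp/+ arrays and 0 wild type arrays and was not tested. C8a, C8b and C9 were not measured either.

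The receptors read complement fragments on leukocytes. C3ar1, the receptor of the C3a fragment, differed by 0.17 ± 0.15 (SE), and was higher within each slide (0.32, 0.13 and 0.05). Itgb2 encodes the beta chain shared by the leukocyte integrins, including the receptors for the C3 fragment iC3b. It was at 0.70, 0.70 and 1.08 in wild type and at 1.51, 1.17 and 0.75 in patDp/+ fat. patDp/+ replicates 1 and 2 were again the highest arrays. The difference was 0.32 ± 0.22 (limma, unadjusted p = 0.193, adjusted p = 0.911), with 0.81, 0.47 and -0.34 within slides. Without patDp/+ replicate 3 it was 0.52 (limma, unadjusted p = 0.0308, adjusted p = 0.494). C5ar1, the C5a receptor, was dim, well above background on 3 wild type and 2 patDp/+ arrays, and its difference of -0.03 ± 0.42 turned to 0.69 with normexp background correction.

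Among the regulators, Cfi encodes factor I, the plasma protease that inactivates C3b and C4b. Its probe, on mm9 at chr3:129578111-129578170, was at -5.97, -5.79 and -4.38 in wild type and at -3.82, -3.48 and -4.70 in patDp/+ fat. It was well above background on 1 of 3 wild type arrays and on 3 of 3 patDp/+ arrays. The groups overlapped, since wild type replicate 3 lay above patDp/+ replicate 3. With 2 of 3 wild type arrays not well above background, the size of the difference is uncertain. It was 1.38 ± 0.50 (SE) and did not pass over all genes (limma, unadjusted p = 0.0327, adjusted p = 0.875, and adjusted p = 0.449 to 1.00 over the alternatives).

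Cfi differed by 2.15 within slide 1, 2.31 within slide 2 and -0.32 within slide 3. Without wild type replicate 3 the difference was 1.88 (limma, unadjusted p = 0.00325) and without patDp/+ replicate 3 it was 1.73 (0.0180). It was 1.07 with normexp and 0.37 in the authors' deposited table (limma, unadjusted p = 0.00796 and 0.0311). Limma's unadjusted p was 0.0783 when slides entered the fit as blocks and 0.0606 under array weights. It was 0.103 and 0.0977 when wild type replicate 1 or 2 was left out, and 0.0818 and 0.1004 when patDp/+ replicate 1 or 2 was. Negative controls were brightest on patDp/+ replicate 1, where Cfi stood at -3.82. Their part in the result was not tested.

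Cd59a, the membrane inhibitor of pore assembly, was at 3.17, 3.41 and 3.41 in wild type and at 3.46, 3.58 and 3.47 in patDp/+ fat. The groups did not overlap, and on each slide the patDp/+ array was the higher one, by 0.29, 0.17 and 0.06. The difference was 0.18 ± 0.09 (SE; limma, unadjusted p = 0.112, adjusted p = 0.894), and it was 0.02 with normexp. The second probe gave 0.19, but its groups overlapped, with patDp/+ replicate 1 at 1.349 and wild type replicate 2 at 1.371. Cd55, which speeds the decay of the convertases, differed by 0.27 ± 0.21, or 0.50 without wild type replicate 2 (limma, unadjusted p = 0.0106, adjusted p = 0.759). Cd46, a cofactor of factor I, was at 0.03 ± 0.13 with 1 probe and at -0.55 with the other, which was well above background on 3 wild type arrays and 1 patDp/+ array, and Cr1l, a further membrane regulator, at -0.08 ± 0.10.

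Serping1 encodes the C1 inhibitor, which blocks C1r, C1s and the MASPs. It was at 4.43, 4.36 and 4.37 in wild type and at 4.66, 4.76 and 4.31 in patDp/+ fat. patDp/+ replicates 1 and 2 lay above all wild type arrays, and patDp/+ replicate 3 lay below them. The difference was 0.19 ± 0.13 (limma, unadjusted p = 0.191, adjusted p = 0.911), or 0.33 without patDp/+ replicate 3 (limma, unadjusted p = 0.0111, adjusted p = 0.430).

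Vtn, the gene of vitronectin, which keeps terminal complexes from inserting into membranes, ran the other way. It was at 2.19, 2.37 and 2.25 in wild type and at 1.97, 1.94 and 2.23 in patDp/+ fat, lower within each slide (-0.22, -0.43 and -0.03). Its difference was -0.23 ± 0.11 (limma, unadjusted p = 0.0744, adjusted p = 0.880), or -0.32 without patDp/+ replicate 3 (limma, unadjusted p = 0.0174, adjusted p = 0.449). Clu, the gene of clusterin, a soluble inhibitor of the same step, had 0.10 ± 0.16, and C1qbp, which encodes a mitochondrial protein that binds C1q, -0.11 ± 0.09. C4bp, the C4b-binding protein, was well above background on 0 arrays. Over the 9 measured regulators the median was 0.10, with 6 positive.

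**Figure D3:**
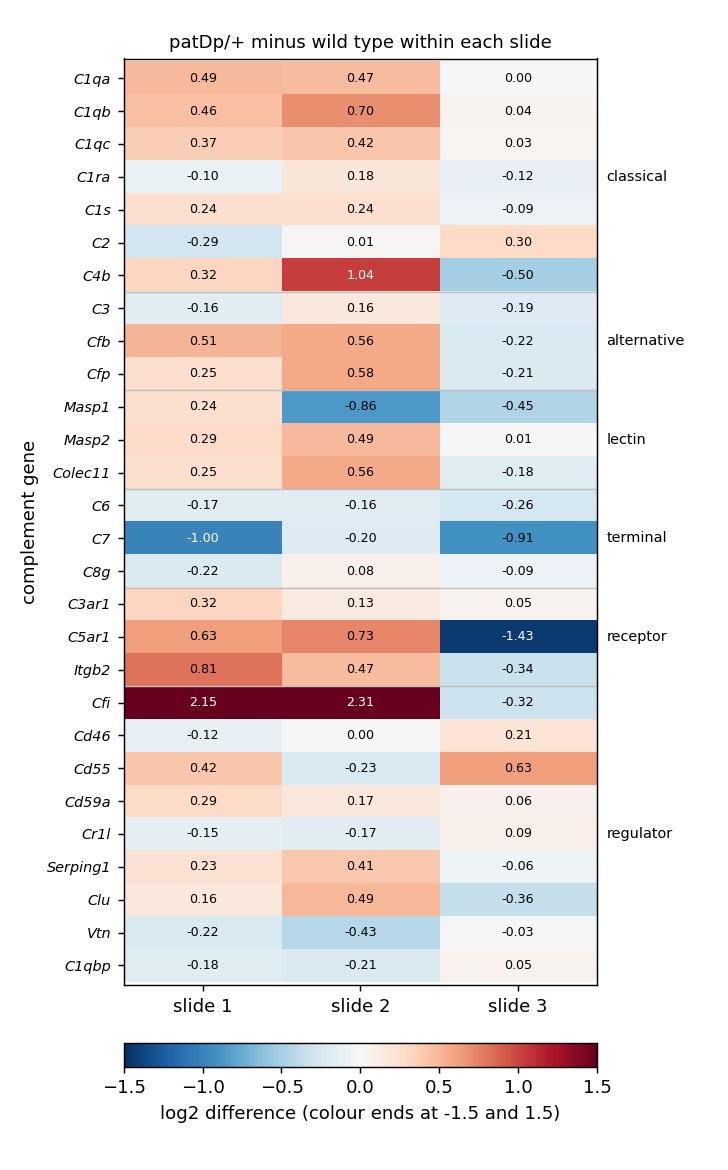
Difference of each measured complement gene within each slide, patDp/+ minus wild type on the log2 scale, as colour and printed value, where the colour scale ends at -1.5 and 1.5. Red fills much of slides 1 and 2 among the classical and alternative genes, with C4b at 1.04 on slide 2, whereas slide 3 is pale or blue there, with C4b at -0.50.

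Slides 1 and 2 differed from slide 3 in most roles, but not in all. The median over the 28 members was 0.24 within slide 1, 0.21 within slide 2 and -0.09 within slide 3, beside 0.02, -0.02 and -0.01 for all genes. In the classical, alternative, lectin and receptor roles the medians within slides 1 and 2 were above that within slide 3. Terminal genes had -0.22, -0.16 and -0.26 within slides 1, 2 and 3, and regulators 0.16, 0.00048 and 0.05, with 5 of 9 positive in each. Positive members numbered 18, 21 and 11 in the 3 slides. In all 3 slides 6 members were higher, C1qa, C1qb, C1qc, Masp2, C3ar1 and Cd59a, and 3 were lower, C6, C7 and Vtn. The shares of all genes for these counts by slide were not taken, so the counts are not called few or many. The array of patDp/+ replicate 3 was the lowest of its group for 57.1% of members, against 37.7% of all genes.

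Leaving out single arrays moved the counts accordingly. Without patDp/+ replicate 3, 10 members were higher at an unadjusted p under 0.05 in limma, where 5.73% of all genes were: C1qa, C1qb, C1qc, C4b, Cfb, Cfp, Masp2, Itgb2, Cfi and Serping1. Cfi had passed the filter on dim probes through the group in which it was higher. Vtn was lower, where 3.59% of all genes were. For 12 members, Cfi among them, the remaining patDp/+ arrays lay above every wild type array, as for 13.8% of all genes. This repeats the count given above for patDp/+ replicates 1 and 2 and is not a further result. For 2 members these arrays lay below every wild type array, also 13.8%. No member passed the adjusted threshold even then (smallest adjusted p = 0.363 in limma), and the median was 0.22. Leaving out a wild type array instead left 0 members (replicate 1), 1 member (replicate 2) or 2 members (replicate 3) higher at that threshold. The shares of all genes were 2.02%, 2.5% and 2.82%. Leaving out patDp/+ replicate 1 or 2 left 0 members, where 1.51% and 1.88% of all genes were higher. The smallest medians came from leaving out patDp/+ replicate 2 (0.08) and wild type replicate 1 (0.09). The array of patDp/+ replicate 3 was singled out after its values were seen. This limit applies to every p given without it, also in the paragraphs on single genes.

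Complement genes outside the 35 members were read in the same way. Of 24 such genes, 18 were measured. At an unadjusted p under 0.05 in limma, 0 were higher and 0 lower, where 2.68% and 2.92% of all genes were. Without patDp/+ replicate 3, 2 of the 18 were higher, where 5.73% of all genes were. Cfd, adipsin, was at 9.32, 8.92 and 8.88 in wild type and at 8.94, 8.83 and 8.89 in patDp/+ fat (-0.16 ± 0.13, SE), so only wild type replicate 1 stood apart. The 4 smallest p belonged to Fcna, a ficolin of macrophages (0.44 ± 0.19), Itgam, the alpha chain that pairs with Itgb2 to form complement receptor 3 (0.43 ± 0.19), C1rl, a C1r-like protease (0.17 ± 0.08), and Vsig4, a C3b receptor of resident macrophages (0.46 ± 0.23), with limma's unadjusted p from 0.0622 to 0.0893. For Fcna and C1rl all patDp/+ arrays stood higher than all wild type arrays, as for 5.26% of all genes. Itgam was at -0.79, -0.98 and -0.72 in wild type and at -0.18, -0.18 and -0.82 in patDp/+ fat. This is the arrangement of Itgb2, and without patDp/+ replicate 3 Itgam differed by 0.65 (limma, unadjusted p = 0.00159, adjusted p = 0.348). Itgax, another integrin alpha chain, lacked this arrangement, since wild type replicate 3, at 0.66, lay above patDp/+ replicate 2, at 0.21. Its difference was 0.37 ± 0.40. Fcnb, Colec10, Cpn1, Cpn2 and Csmd1 were among those not measured.

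**Figure D4:**
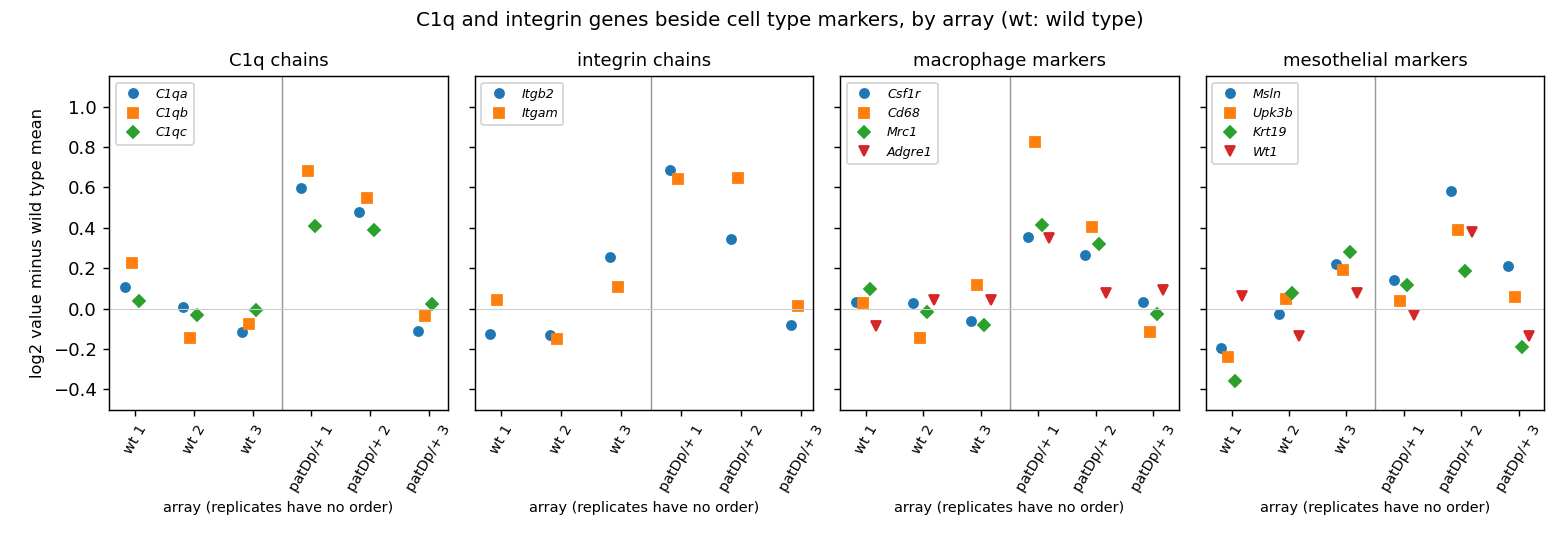
Log2 value minus the wild type mean of each gene on each array, for the C1q chains, the integrin chains Itgb2 and Itgam, 4 macrophage markers and 4 mesothelial markers; the vertical line parts wild type from patDp/+ arrays. The macrophage markers shown are 4 of 13, of which Cd68, Csf1r and Mrc1 stand highest on patDp/+ replicates 1 and 2, and Msln is highest on patDp/+ replicate 2. Fcgr1, Mertk, Marco and Cd14, not shown, were highest on wild type replicate 1.

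Markers of cell types were set beside these values, because several members are leukocyte genes. In whole tissue, a change in the number of cells of a type and a change in RNA per cell cannot be told apart. Of 13 macrophage markers, all measured, 10 had a positive difference, with a median of 0.17 and 1, Timd4, higher at an unadjusted p under 0.05. Their summed signal, in multiples of the array's 75th percentile, was 218 to 241 in wild type and 287, 253 and 234 in patDp/+ replicates 1, 2 and 3. The within-slide medians were 0.27, 0.24 and 0.06. Lyz2, a lysozyme gene, made up 81.8% to 84.1% of that sum. Without it the sums were 37.7 to 42.2 in wild type and 47.6, 46.0 and 39.6 in patDp/+ replicates 1, 2 and 3. For 6 of the 13 markers, patDp/+ replicates 1 and 2 both stood above all wild type arrays, and for 7 they did not. These 6 were Adgre1, Cd68, Csf1r, Lyz2, Mrc1 and Timd4. The C1q chains had this too. Unlike those chains, Adgre1 and Timd4 also stood above all wild type arrays on patDp/+ replicate 3. Fcgr1, Mertk, Marco and Cd14 were highest on wild type replicate 1. The part of macrophages in the result was not tested.

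On none of the other lists did patDp/+ replicates 1 and 2 both have a larger sum than every wild type array. A sum follows its brightest genes. Neutrophil and monocyte markers had medians of 0.20, 0.40 and -0.05 within slides 1, 2 and 3, and mesothelial markers 0.29, 0.31 and -0.17. Fibroblast and progenitor markers had 0.11, 0.11 and -0.03, and adipocyte markers -0.11, -0.14 and 0.03. Slides 1 and 2 thus stood above slide 3 on lists other than that of macrophages, but not on that of adipocytes. Single genes of the other lists, Ccr2 and Lep among them, also had patDp/+ replicates 1 and 2 above all wild type arrays. Lep belongs to the adipocyte list, on which 7 of 9 genes had a negative difference. Neutrophil and monocyte markers (8 of 9, without Ly6g) summed to 65.6 to 79.5 in wild type and 68.0 to 77.5 in patDp/+ fat. Ly6c2 was by far the brightest of them. Fibroblast and progenitor markers (10 of 10) summed to 437 to 498 and 400 to 492, and adipocyte markers (9 of 9) to 2135 to 2406 in wild type and 2135, 2015 and 2253 in patDp/+ replicates 1, 2 and 3. Mesothelial markers (8 of 8), from the lining of the depot, summed to 28.5 to 39.2 in wild type and 35.4 to 45.2 in patDp/+ fat, with the highest sum on patDp/+ replicate 2, the array with the highest C4b, Cfb and Cfp. Haemoglobin and other red cell markers (2 of 3, without Hbb-b1) summed to 178 to 275 in wild type and to 197, 221 and 365 in patDp/+ fat, highest on patDp/+ replicate 3. Endothelial markers (5 of 5) had a median difference of -0.21 and summed to 23.6 to 25.9 in wild type and to 20.7, 20.8 and 24.6 in patDp/+ fat, lowest on patDp/+ replicates 1 and 2.

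T and NK cell markers (7 of 8, without Cd4) had a median difference of 0.29, with sums of 1.33 to 1.84 and 1.81 to 2.08. At an unadjusted p under 0.05 in limma, Cd8a (1.35) and Cd3d (0.45) of that list were higher, as was the neutrophil gene Csf3r (0.39), and the B cell gene Cd79b (-0.74) and the endothelial gene Emcn (-0.21) were lower. B cell markers (5 of 6, without Pax5) had -0.60, with sums of 1.57 to 2.19 in wild type and of 0.75, 1.01 and 1.68 in patDp/+ fat, also lowest on patDp/+ replicates 1 and 2. The 2 measured liver markers summed to 0.19 to 0.26 and 0.22 to 0.27. The part of these cell types and of blood in the complement values was not tested.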

How the data were processed

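RNA of 6 mice was labelled with Cy3 and hybridised to Agilent mouse arrays, 1 per mouse. Groups were taken from the sample titles. The source name field, which reads the same for every sample, was not used. The deposited scanner files hold spot intensity values. Per the file headers, Feature Extraction 9.5.1.1 made them and subtracted the background, with no scaling between arrays. In the submitters' processing notes stand limma 3.18.2 and Agilent Feature Extraction 9.5. A table of log2 values that the authors deposited, with background correction not stated, served as an alternative. Each of its columns, with medians near 7.58, correlated best with its own array (0.984 to 0.988).

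Processed intensities were averaged over the spots of a probe, without outlier spots, and put on a log2 scale on which 0 is the array's 75th percentile, controls excluded. Of 41174 probes, 27975 were well above background on at least 3 arrays. The brightest kept probe stood for a gene. The test was limma 3.58.1 (R 4.3.3; two-sided lmFit and eBayes without covariates) over 19194 genes or features, adjusted by Benjamini-Hochberg at 0.05; every limma p in the text comes from such fits, and errors marked SE are limma's. The scripts were tested on simulated data. The number of arrays limits the precision, and p-values measure the spread between mice. Probe coordinates are mm9, and their place in exons or untranslated regions was not analysed here. Promoter sequences are from RefSeq on GRCm38.p6, in which 19 measured members had a window. The members, gene lists and tests were chosen with earlier results of these data known. All 35 members are accounted for, and of the other complement genes Cfd and the 4 with the smallest p are named. C4a was added for its likeness to C4b, and Itgax as another alpha chain beside Itgam. Some genes that the naming rule covers are not reported here.

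Each slide used held the wild type and patDp/+ array of 1 replicate number, so the slide block and the replicate block are the same fit. The deviations of same-numbered arrays correlated at 0.11, -0.09 and -0.04, so the numbers were not taken to pair the mice. Alternatives were the deposited table, quantile normalization, normexp (offset 50), other probe filters, the mean over probes, the block, array weights, another variance model, a threshold of 0.01 and leaving out each array.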

Additional observations from a re-analysis of the deposited data

How the results depend on the processing

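None of the members passed the adjusted threshold in limma under any alternative, where 1 was higher at an unadjusted p under 0.05 in the main setting. The median difference ran from 0.08 to 0.22 over the alternatives, and 19 of 28 members kept their sign. With normexp it was 0.08 beside 0.07 for all genes, so that the members' median hardly differed from that of all genes. The count of members higher at an unadjusted p under 0.05 is given with the share of all genes in brackets. It was 2 with normexp (2.75%), quantile normalization (2.59%) or the deposited table (2.58%). With array weights it was 5 (4.43%) and with the other variance model 3 (3.07%). It was 0 at 0.01 (1.09% in either direction) and 0 to 10 without single arrays (1.51% to 5.73%). The count lower was 2 with normexp (1.57%) or array weights (4.65%). It was 1 with the deposited table (2.46%), no filter (1.63%) or the other variance model (2.92%). Without single arrays it was 0 to 1 (2.06% to 3.66%). With no filter the counts are over 35 members. With the replicate block, which equals the slide block, 0 were higher (2.36%) and 1 was lower (2.76%), C7. Of the other complement genes 1 was higher. Groups did not overlap for 1 higher member with the deposited table (4.32%) or the mean over probes (4.97%). Without single arrays this held for 2 to 12 higher members (8.09% to 13.8%). Among lower members it held for 2 with normexp (7.45%), 1 with the deposited table (5.37%) and 1 with no filter (4.3%). Without single arrays it held for 1 to 2 lower members (9.23% to 13.8%). Of the other complement genes, 2 were higher with normexp, the deposited table or the other variance model, 3 with array weights and 0 to 2 without single arrays, where 0 to 1 were lower.

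Signs turned for 9 members. With normexp, which moved the median of all genes from -0.01 to 0.07 and the calls at an unadjusted p under 0.05 from 514 higher and 561 lower to 528 and 301, C1s had -0.014, C2 -0.096, C8g 0.073, C5ar1 0.69 and Clu -0.0045. With array weights C1ra had 0.058, C3 0.022, C6 0.091 and Cd46 -0.056. Cd46 had -0.0093 with quantile normalization and -0.26 with the mean over probes, and C5ar1 had 0.020 with the deposited table. Without single arrays the differences ran from -0.11 to 0.062 for C1ra, -0.093 to 0.12 for C2, -0.14 to 0.033 for C3, -0.42 to 0.059 for C6, -0.21 to 0.12 for C8g, -0.27 to 0.41 for C5ar1, -0.098 to 0.10 for Cd46 and -0.035 to 0.22 for Clu. The cause was not tested. Cfi, C5ar1 and Cd46 lie near background, which limits their precision, and Cfi and C5ar1 could not be fitted where all 6 arrays had to be well above background.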
